A study of Mus musculus with 2 samples.

Results

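The cell cycle and DNA replication genes described here are 53 listed symbols grouped by role, and all 53 were found by Ensembl identifier in both gene tables, among 42462 genes with a symbol. They fall into 8 genes of G1 and the G1/S transition, 11 E2F and pocket protein genes, 15 genes of S phase, 14 genes of G2 and mitosis, and 5 inhibitors, Trp53 included. Total RNA came from the embryonic facial prominence of Mus musculus strain B6NCrl at embryonic day 14.5, with no treatment or transgene named. There was 1 group of 2 biological replicates, each described as the cranioface of a single pup from a different collection day, although the sex label speaks of pooled male and female. With 1 group no conditions could be compared, and with 2 libraries no test between embryos was possible. Each level is therefore given for replicate 1 and then for replicate 2.

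Cells pass from G1 into S phase when D-type cyclins with Cdk4 or Cdk6, and then cyclin E with Cdk2, phosphorylate the pocket proteins Rb1, Rbl1 and Rbl2 and so release E2F factors. E2F factors drive genes of DNA replication. The DREAM and MuvB complexes, acting through the cell cycle genes homology region (CHR), time the genes of G2 and mitosis. Inhibitors of the Cip/Kip and Ink4 families stop the kinases, and in the growing face proliferating mesenchyme and epithelium lie beside muscle, bone and skin cells that have left the cycle. In a bulk sample, fewer dividing cells and less RNA per dividing cell cannot be told apart.

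Promoter sequence is shown for members whose levels are described below, since genes of S phase and of mitosis are known for different promoter elements. Of the 53 members 43 had an entry in the RefSeq promoter table (GRCm38.p6, the same assembly as mm10), with 50 promoters in all. The 250 bases before each start were searched on both strands for TTTGAA (the CHR), for CCAAT, and for TTTCGCGC or TTTGGCGC (forms of the E2F site). These searches can overlap each other. CCAAT stood in 11 of 12 promoters of G2 and mitosis genes (91.7%, all but Birc5) and in 33.8% of all 32851 promoters of this length. TTTGAA stood in 5 of those 12 (41.7%) and in 16.0% of all promoters, and the 5 genes were Ccnb2, Cdc20, Cdk1, Mki67 and Top2a. In S phase genes CCAAT stood in 11 of 14 promoters (78.6%) and TTTGAA in 2 of 14 (14.3%). Outside the 53, CCAAT stood in 20 of 27 promoters of other mitosis genes (74.1%) and TTTGAA in 10 of 27 (37.0%). In other genes of origin firing, the polymerases and the clamp loader, CCAAT stood in 14 of 37 (37.8%) and TTTGAA in 4 of 37 (10.8%). An E2F site of these forms stood in 2 of 14 promoters of S phase genes (14.3%), those of Mcm5 and Mcm6, and in 0.654% of all promoters. Rbl1 and Cdk1 held the other matches to these forms among the members. Other forms of the E2F site were not searched for, so members without a match may still hold such a site. In E2F and pocket protein genes TTTGAA stood in 4 of 10 promoters (40%), and in those of G1 genes and inhibitors in 0 of 6 and 0 of 8. Each sequence reads 5′ to 3′ and ends at the base before the start, with the matches in capitals. In the mitotic genes capitals mark CCAAT (or ATTGG on the other strand), TTTGAA (or TTCAAA) and E2F sites.

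Ccnb2 (chr9:70421555-70421804, minus strand): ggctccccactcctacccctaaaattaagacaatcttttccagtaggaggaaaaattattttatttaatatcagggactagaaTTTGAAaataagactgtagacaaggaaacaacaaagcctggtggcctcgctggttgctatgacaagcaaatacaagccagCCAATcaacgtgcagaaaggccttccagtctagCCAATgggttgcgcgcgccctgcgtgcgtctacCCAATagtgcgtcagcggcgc

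Cdk1 (chr10:69352913-69353162, minus strand): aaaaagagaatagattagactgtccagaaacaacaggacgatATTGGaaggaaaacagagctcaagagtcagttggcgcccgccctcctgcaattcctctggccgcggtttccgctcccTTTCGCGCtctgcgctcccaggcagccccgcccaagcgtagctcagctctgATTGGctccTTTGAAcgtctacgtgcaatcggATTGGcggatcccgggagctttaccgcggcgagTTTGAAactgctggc

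Cdc20 (chr4:118437344-118437593, minus strand): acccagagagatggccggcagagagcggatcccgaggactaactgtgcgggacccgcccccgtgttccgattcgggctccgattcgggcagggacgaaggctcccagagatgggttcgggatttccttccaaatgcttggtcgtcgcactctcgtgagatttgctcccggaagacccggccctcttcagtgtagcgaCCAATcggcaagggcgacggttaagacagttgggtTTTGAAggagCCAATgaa

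Top2a (chr11:99024190-99024439, minus strand): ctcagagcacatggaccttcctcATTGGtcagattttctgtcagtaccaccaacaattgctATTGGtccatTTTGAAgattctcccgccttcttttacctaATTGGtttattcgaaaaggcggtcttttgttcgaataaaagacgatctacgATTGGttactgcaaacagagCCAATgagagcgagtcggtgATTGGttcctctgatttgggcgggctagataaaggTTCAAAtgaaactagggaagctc

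Plk1 (chr7:122159185-122159434, plus strand): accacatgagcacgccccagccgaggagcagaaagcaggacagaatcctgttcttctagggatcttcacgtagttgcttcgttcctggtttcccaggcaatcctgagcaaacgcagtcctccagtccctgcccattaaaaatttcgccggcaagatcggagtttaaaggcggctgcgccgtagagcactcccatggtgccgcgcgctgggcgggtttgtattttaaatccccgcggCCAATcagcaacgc

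In the Cdk1 promoter the TTTGAA matches began 71 and 15 bases before the start and the E2F site 131 bases before it. Plk1 held a CCAAT 14 bases before the start and no TTTGAA in this window. In the S phase genes Mcm5 and Mcm6 the capitals mark E2F sites alone, and the 2 matches to CCAAT in each are left in lower case. Matches on opposite strands overlap in both, at 153 and 149 bases before the start in Mcm5 and at 110 and 106 bases in Mcm6, and Mcm6 held a further match at 47 bases.

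Mcm5 (chr8:75109259-75109508, plus strand): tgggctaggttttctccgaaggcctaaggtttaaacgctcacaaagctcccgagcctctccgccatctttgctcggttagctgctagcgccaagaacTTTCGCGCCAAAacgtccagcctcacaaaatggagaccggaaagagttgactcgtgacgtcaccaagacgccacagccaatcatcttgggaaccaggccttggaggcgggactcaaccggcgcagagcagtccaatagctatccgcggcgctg

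Mcm6 (chr1:128359706-128359955, minus strand): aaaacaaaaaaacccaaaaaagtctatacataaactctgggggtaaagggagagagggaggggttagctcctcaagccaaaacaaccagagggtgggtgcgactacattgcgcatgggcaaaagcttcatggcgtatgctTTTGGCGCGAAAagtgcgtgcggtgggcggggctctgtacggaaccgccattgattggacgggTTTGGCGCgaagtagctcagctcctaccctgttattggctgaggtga

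Cdkn1a, the p53 target that encodes the inhibitor p21, is shown because it was, with Cdkn2c, among the members farthest above the median gene in the comparison of the libraries below. Its first RefSeq promoter held none of the 3 elements above. It held CATG, 6 bases of any kind and CATG again, the spacing of the cores of a p53 response element, 48 bases before the start, shown in capitals. That motif was searched for after this sequence had been read, and it stood in 0.490% of all promoters. The other RefSeq promoter of Cdkn1a (chr17:29093519-29093768, plus strand) held no match to that motif or to the 3 elements above.

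Cdkn1a (chr17:29090729-29090978, plus strand): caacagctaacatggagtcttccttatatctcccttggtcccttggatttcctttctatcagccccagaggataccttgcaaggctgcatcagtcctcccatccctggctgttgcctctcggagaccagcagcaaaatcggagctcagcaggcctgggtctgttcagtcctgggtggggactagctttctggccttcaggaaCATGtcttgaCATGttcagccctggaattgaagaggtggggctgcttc

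Replicate 1 held 30919488 expected counts (estimated reads) and replicate 2 held 37738872. Added spike-in RNAs took 3.22% and 5.43% of them. All 9 facial mesenchyme markers fixed for this work reached 1 TPM (the transcript unit of the files, a level scaled by length) in both libraries, led by Prrx1 at 80.1 and 78.8 TPM. Of 5 brain and 3 heart markers none did, and of 4 liver markers Apoa2 alone did. By mean level the highest of each list were Olig2 with 1.06 and 0.89 TPM, Myl7 with 1.24 and 0.48 TPM, and Ttr with 0.45 TPM in replicate 1 against 60.2 TPM in replicate 2.

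Of the 53 members, 52 reached 1 TPM in both libraries, and the exception was Cdkn2a. Of all 42462 genes with a symbol 15035 did, and of 21474 protein-coding genes 13717 did. Together the members held 5847 and 4933 TPM, or 0.723% and 0.647% of the counts. Their median level was 70.2 and 60.3 TPM, where the median protein-coding gene had 5.56 and 5.17 TPM. By role the medians were 107 and 81.7 TPM for G2 and mitosis genes, 96.6 and 84.2 TPM for G1 genes and 93.3 and 70.9 TPM for S phase genes. E2F and pocket protein genes were lower, at 17.1 and 17.3 TPM, as were the inhibitors.

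**Figure D1:**
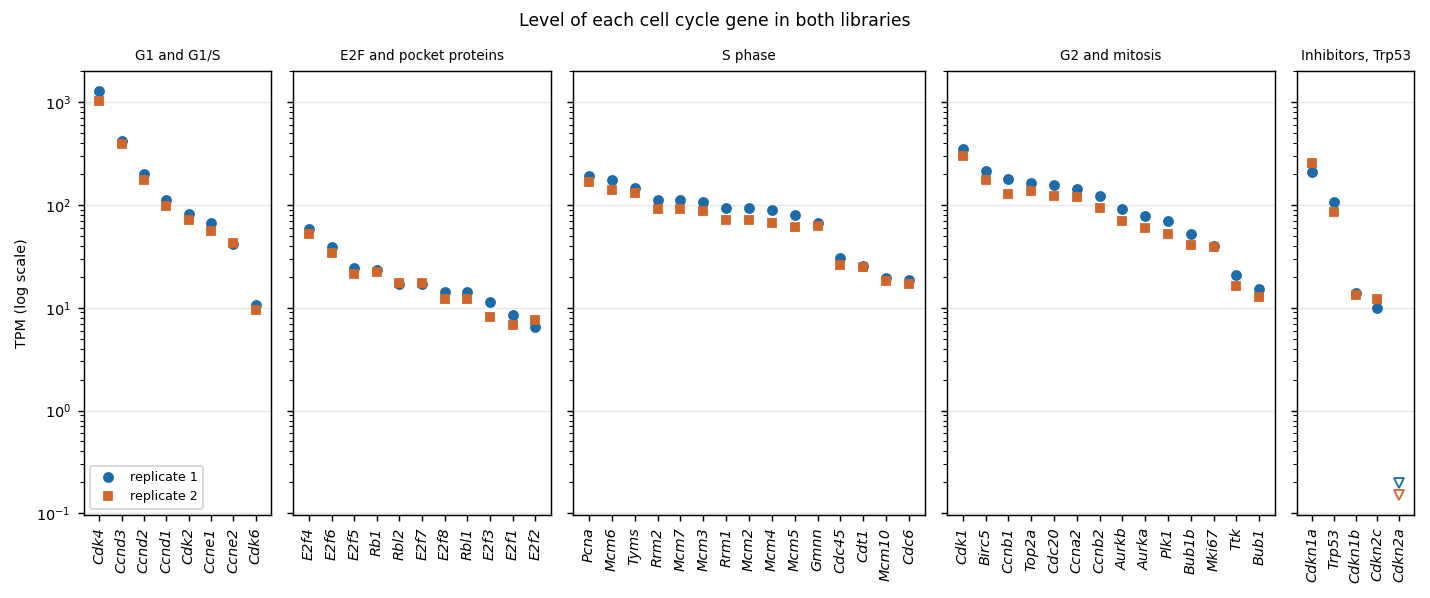
Level in TPM, on a log scale, of each member in replicate 1 (circles) and replicate 2 (squares), ordered by mean within each role. Cdk4 is at the top with 1289 and 1019.7 TPM, and open triangles mark Cdkn2a, which had 0 counts, at the upper limits of 0.196 and 0.152 TPM that 3 counts would give.

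Among the G1 genes the kinase Cdk4 led. Cdk4 (chromosome 10, from 127063534, mm10) had 1289 and 1019.7 TPM, above 99.7% and 99.6% of protein-coding genes. Its close relative Cdk6, which also pairs with D cyclins, had 10.7 and 9.55 TPM, so that the level of Cdk4 was 121 and 107 times that of Cdk6. Counting coding transcripts alone, the ratio was 41.9 and 40.0. Cdk2, the partner of cyclins E and A, lay between them at 82.0 and 70.9 TPM.

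All 3 D cyclins, which link growth factor signals to the cycle, were expressed in the order D3, D2, D1. Ccnd3 had 419.8 and 394 TPM. Ccnd2 had 199 and 173 TPM, and Ccnd1 had 111 and 97.6 TPM. The order was the same in both libraries, no library of a higher cyclin came down to the level of the next, and Ccnd3 stood at 3.78 and 4.04 times Ccnd1. The E cyclins, which carry cells into S phase, were lower, with 67.2 and 56.1 TPM for Ccne1 and 41.3 and 43.0 TPM for Ccne2.

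The E2F family was led by its repressors. E2f4, the main E2F of resting cells, had 58.1 and 52.6 TPM, E2f6, a repressor that works without pocket proteins, 38.6 and 34.5 TPM, and E2f5 24.2 and 21.5 TPM. The activators were the lowest genes of the family, with 8.48 and 6.72 TPM for E2f1, 6.43 and 7.62 TPM for E2f2 and 11.3 and 8.04 TPM for E2f3. Summed, the 3 repressors held 121 and 109 TPM and the 3 activators 26.2 and 22.4 TPM. E2f3 lay above E2f2 in every library, while E2f1 overlapped with both between libraries. The atypical repressors E2f7 and E2f8, which act late in S phase, lay between, at 17.1 and 17.3 TPM and at 14.3 and 12.3 TPM.

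The pocket proteins hold E2F factors in check. Rb1, the retinoblastoma protein, had 23.4 and 22.1 TPM. Rbl2 (p130), known from resting cells, had 17.2 and 17.5 TPM, and Rbl1 (p107), known from cycling cells, had 14.2 and 12.0 TPM. Rb1 lay above both relatives in each library. Over coding transcripts alone this order was lost, with 11.2 and 11.3 TPM for Rb1, 14.52 and 14.04 TPM for Rbl2 and 7.17 and 7.91 TPM for Rbl1.

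Among the S phase genes Pcna, the sliding clamp of the replicative polymerases, was the highest at 192 and 168 TPM. All 6 subunits of the MCM helicase, which unwinds DNA at the fork as a ring with each subunit present once, were abundant. Mcm6 had 174 and 140.3 TPM. The other 5 had between 79.7 and 111 TPM in replicate 1 and between 61.4 and 90.5 TPM in replicate 2, so that Mcm6 stood apart from them in both libraries. Mcm5, the lowest, had 79.7 and 61.4 TPM, and Mcm6 stood at 2.19 and 2.29 times its level. Mcm7 (111 and 90.5 TPM), Mcm3 (108 and 88.2 TPM), Mcm2 (93.3 and 70.9 TPM) and Mcm4 (88.5 and 67.0 TPM) overlapped between libraries with their neighbours in this order.

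Factors that load or fire the helicase were less abundant than its subunits. Gmnn (geminin), which blocks a new round of loading, had 66.9 and 62.6 TPM, against 25.7 and 25.1 TPM for its target Cdt1. Cdc45, part of the active helicase, had 30.7 and 26.3 TPM. Cdc6, which loads MCM rings with Cdt1, had 18.5 and 17.1 TPM, and Mcm10 19.7 and 18.1 TPM. Each of these lay below every MCM subunit of the same library, with Gmnn in replicate 2 above Mcm5 as the exception.

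Genes of nucleotide supply were at the level of the helicase. Rrm1 and Rrm2, the subunits of ribonucleotide reductase, had 93.6 and 71.6 TPM and 111 and 91.5 TPM. Tyms, thymidylate synthase, had 147 and 130 TPM over all transcripts. Its coding transcript had 13.6 and 11.4 TPM, as described with the transcripts.

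Over all transcripts Cdk1, the kinase of mitosis (chromosome 10, from 69335146), was the highest gene of G2 and mitosis at 350.3 and 299.8 TPM. This was 4.27 and 4.23 times the level of Cdk2. Over coding transcripts alone Cdk1 had 197 and 160 TPM, below Birc5 (214 and 174 TPM), and the ratio to Cdk2 was 2.41 and 2.26. The cyclins of Cdk1 were lower over all transcripts. Ccnb1 had 177 and 128 TPM, Ccnb2 123 and 92.9 TPM and Ccna2, which also acts in S phase, 141 and 119 TPM. Replicate 1 was the higher library for all of them. Birc5 (survivin), of the chromosomal passenger complex, had 214 and 174 TPM, and its kinase Aurkb 90.7 and 70.5 TPM. The related centrosome kinase Aurka had 77.9 and 60.3 TPM, and Plk1, a kinase with roles throughout mitosis, 70.2 and 52.4 TPM.

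Top2a, which untangles sister chromosomes, had 162 and 137 TPM, and Cdc20, the activator of the anaphase-promoting complex, 157 and 122 TPM. Spindle checkpoint kinases were the low end of the group, with 52.7 and 40.6 TPM for Bub1b, 20.8 and 16.1 TPM for Ttk and 15.3 and 12.7 TPM for Bub1. Mki67, the proliferation marker Ki-67, had 39.5 and 38.8 TPM. In each library it lay below 11 of the 14 genes of its group.

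Among the inhibitors Cdkn1a was the highest. Cdkn1a (p21) had 209.5 and 254 TPM, which was 14.9 and 18.9 times the level of its relative Cdkn1b (p27), at 14.02 and 13.42 TPM. Cdkn2c (p18), an Ink4 inhibitor of Cdk4 and Cdk6, had 9.87 and 12.1 TPM. Trp53, the tumour suppressor that induces Cdkn1a, had 108 and 84.8 TPM. Cdkn1a and Cdkn2c were the higher in replicate 2, Trp53 and Cdkn1b in replicate 1.

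Cdkn2a (chromosome 4, from 89274471), which encodes p16Ink4a and p19Arf from separate first exons, had 0 counts in both libraries. A count of 0 allows up to 0.196 and 0.152 TPM at its effective length, counting error only. Among the related inhibitors outside the 53, Cdkn1c (p57) was the highest with 1546 and 1434 TPM, above every member, and Cdkn2d (p19Ink4d) had 52.2 and 47.9 TPM. Cdkn2b (p15), the neighbour of Cdkn2a, had 2.55 and 1.91 TPM.

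For most members the level came from coding transcripts. In 37 of the 52 members with counts, coding transcripts held at least 90% of TPM in both libraries. Another 10 members were below 80% in at least 1 library. Neither count was made over all genes. TPM divides by length, so that a short transcript takes a large share of TPM from few counts. In Cdk4 coding transcripts held 34.8% and 37.5% of TPM, retained-intron transcripts 45.7% and 46.0%, and transcripts annotated for nonsense-mediated decay 19.5% and 16.5%. The leading Cdk4 transcript was Cdk4-209, a retained-intron model of 468 bases with 3871 and 3918 counts. Coding transcripts of Cdk4 held 9919 of its 19155 expected counts in replicate 1 and 10995.5 of 19788 in replicate 2. By coding transcripts Cdk4 had 448 and 382 TPM, above Ccnd3 (418 TPM) in replicate 1 and below it (392 TPM) in replicate 2.

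Tyms was the other member whose leading transcript was not coding. Tyms-205, a decay model of 797 bases, held 46.8% and 48.8% of its TPM, and coding transcripts held 9.23% and 8.8%. By counts the coding transcript Tyms-201, of 3163 bases, had 821 of the 3133 expected counts of the gene in replicate 1 and 892 of 3563 in replicate 2. In Cdk1 retained-intron transcripts held 43.7% and 46.6% of TPM but 1038 of 5680 and 1201 of 6102 counts. Noncoding models also held 46.7% and 42.5% of the TPM of Rb1 as processed transcripts, from 66.6 and 74.4 counts.

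**Figure D2:**
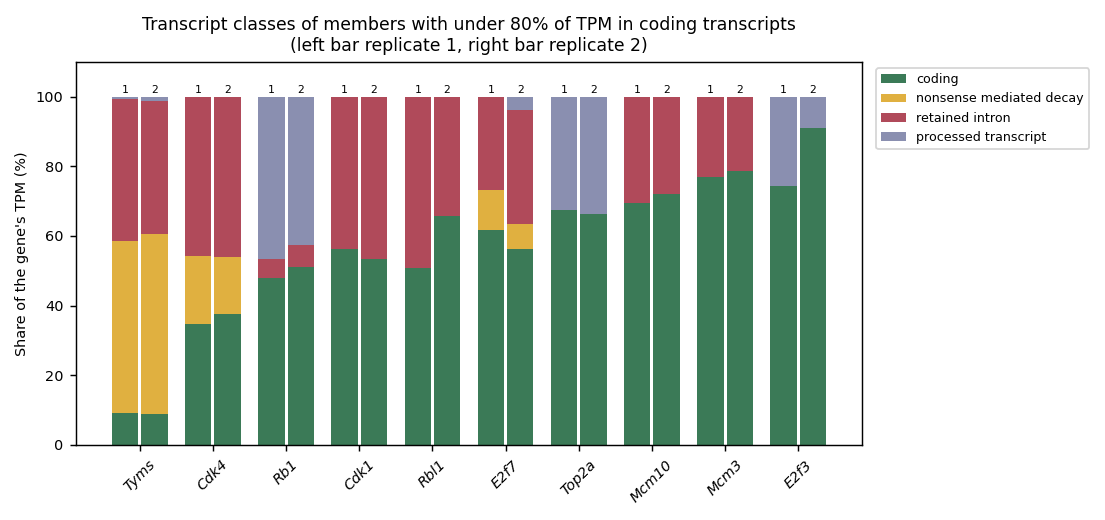
Share of each gene's TPM (y axis, percent) by annotated transcript class for the 10 members below 80% coding in at least 1 library, with replicate 1 as the left and replicate 2 as the right bar. Tyms has the smallest coding share at 9.23% and 8.8%, and E2f3 and Rbl1 have coding shares that differ most between libraries.

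The leading transcript was the same in both libraries for 50 of 52 members, a count that was not made over all genes. The others were Cdkn2c, where Cdkn2c-202 held 51.2% in replicate 1 and Cdkn2c-201 53.6% in replicate 2, and E2f7, led by E2f7-201 with 31.9% and then by E2f7-204 with 26.3%. Several members used a pair of coding transcripts in stable shares. Cdk2-201 held 75.2% and 76.5% of Cdk2, and Cdc45-201 held 56.7% and 58.0% of Cdc45. Trp53-201 held 66.08% and 74.97% of Trp53, while Trp53-203 held 17.1% in replicate 1 and 8.3% in replicate 2. Of the 3 Cdkn1a transcripts, Cdkn1a-201 (56.4 and 79.3 TPM) and Cdkn1a-202 (141 and 163 TPM) were higher in replicate 2, and the minor Cdkn1a-203 was not (12.4 and 11.5 TPM).

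The libraries were compared as the log2 ratio of TPM + 1, replicate 2 to replicate 1, for the 11438 genes with a mean of 5 TPM or more. The median gene had a ratio of −0.15 on this scale, and ratios below are relative to that gene. Of the 52 members compared, 0 lay 1.5-fold or more below it and 0 lay 1.5-fold or more above it, where 0.498% and 2.03% of all genes did. Of the members, 36 of 52 (69.2%) lay below the median gene against 50% of all genes. Their median was −0.07.

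An exact 95% interval for the ratio of counts, which covers counting error only, lay wholly below the median gene for 25 of 52 members, against 23.2% of all genes. It lay wholly above for 9 of 52, against 24.8% of all genes. These shares describe the difference of 2 libraries and not of conditions, and no molecular identifiers are named for the reads.

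**Figure D3:**
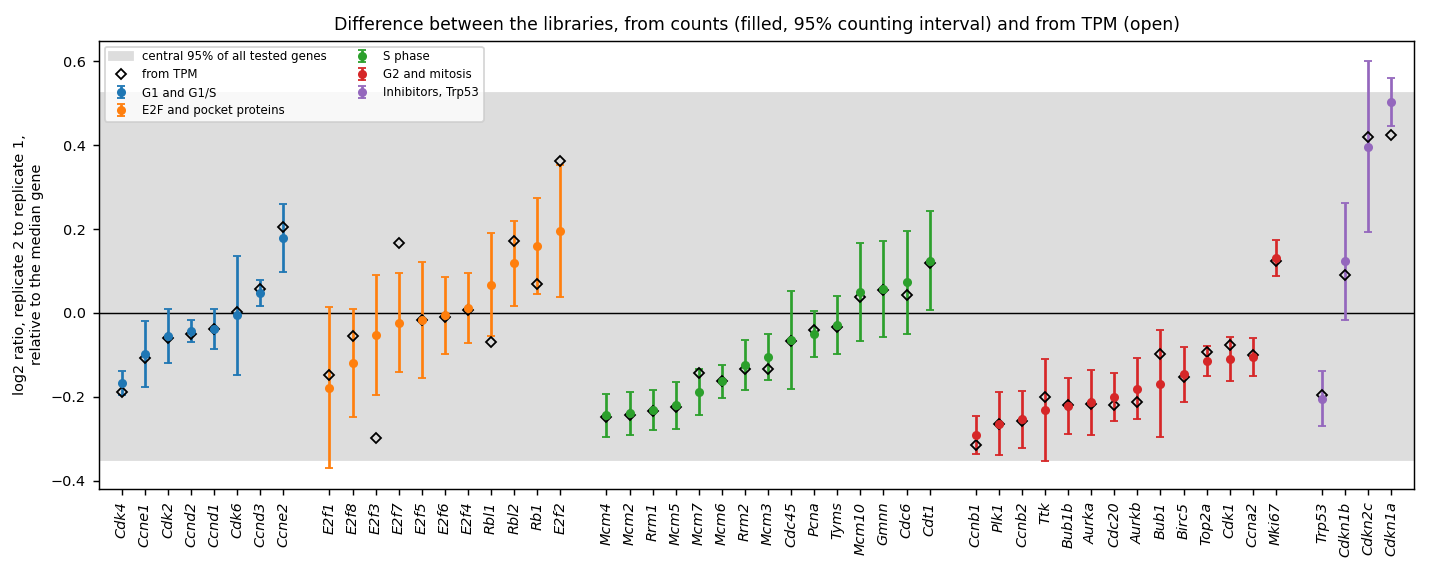
Log2 ratio of replicate 2 to replicate 1 relative to the median gene for the 52 members compared, from counts with its exact 95% counting interval (filled) and from TPM + 1 (open), over the central 95% of all tested genes (grey). Of 14 genes of G2 and mitosis 13 have intervals below the median gene, Mki67 lies above, and Cdkn1a and Cdkn2c are the highest members by counts.

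Genes of G2 and mitosis were the lowest group in replicate 2. Of 14, 13 lay below the median gene and the group median was −0.21. Ccnb1 had the lowest ratio of the group, at −0.31, from 8035 and 7622 counts, with a counting interval of −0.34 to −0.25 around −0.29 by counts. Plk1 had −0.27, Ccnb2 −0.26, and Aurka, Bub1b and Cdc20 −0.22 each. The exception was Mki67 at 0.12, from 7775 and 9872 counts, with an interval of 0.09 to 0.17. Cdk1 lay closer to the median gene than these, at −0.08.

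Among S phase genes the helicase and ribonucleotide reductase were lower in replicate 2. All 6 MCM subunits lay below the median gene with intervals that excluded it, from −0.25 for Mcm4 and −0.24 for Mcm2 to −0.13 for Mcm3. Rrm1 had −0.23 and Rrm2 −0.13, while Pcna had −0.04 and Tyms −0.03 with intervals that included it. The loading and firing factors were on the other side or near it, with 0.12 for Cdt1, 0.05 for Gmnn, 0.04 for Cdc6 and Mcm10 and −0.07 for Cdc45. In all, 11 of 15 lay below and the group median was −0.13.

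The G1 genes lay around the median gene, 5 of 8 below it, with a group median of −0.04. Cdk4 was the lowest at −0.19 and Ccne2 the highest at 0.20, while the D cyclins lay between −0.05 and 0.06. For E2F and pocket protein genes the group median was −0.01, with 6 of 11 below. The TPM ratios of the activators E2f3, at −0.30, and E2f2, at 0.36, rested wholly or in part on short noncoding models. The E2f3 model E2f3-202, of 216 bases, had 6.73 and 2.17 counts, and by all counts of the gene the ratio was −0.05. For E2f2 it was 0.20 by counts, with an interval of 0.04 to 0.35 that lay above the median gene, and 0.15 over coding transcripts alone. Its noncoding model E2f2-202, of 426 bases, had 0 and 9.10 counts. For Rbl1 the ratio was −0.07 over all transcripts and 0.26 over coding transcripts alone.

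Cdkn1a and Cdkn2c were the members farthest above the median gene, at 0.42 each. By counts, Cdkn1a had a ratio of 0.50 with an interval of 0.45 to 0.56, from 4001 and 6580 counts, and Cdkn2c 0.40 with an interval of 0.19 to 0.60, from 332 and 507 counts. Cdkn1b lay at 0.09 with an interval that included the median gene. Trp53 lay below the median gene, at −0.20.

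The wider pathway was described with 99 other genes of the cycle from a chosen list of 100 symbols, 1 of which was not matched. All 99 reached 1 TPM in both libraries, where 13717 of 21474 protein-coding genes did. The highest of the list were Cdkn1c and the kinase cofactors Cks1b with 343.9 and 289 TPM and Cks2 with 230.1 and 218 TPM. The lowest was Cdkn2b. Of the 96 compared, 0 lay 1.5-fold or more below and 0 lay as far above, and 75 (78.1%) lay below the median gene, with a median of −0.11. By subgroup, 27 of 29 further genes of mitosis lay below (median −0.16), as did 16 of 19 genes of the polymerases, their single-strand binding protein and the clamp loader (−0.10), 10 of 12 checkpoint genes (−0.10) and 9 of 15 genes of origin firing (−0.07). Of 13 regulators of G1 and S phase entry 10 did (−0.10). Of 5 nucleotide supply genes 2 did, with a median of 0.01, and of 3 other inhibitors 1 did, with a median of 0.02.

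The replication-dependent histone genes, whose messages are made in S phase and mostly lack a poly(A) tail, were set beside them. Of 20 such genes, 17 reached 1 TPM in both libraries and 13 were compared. Of these 7 lay below the median gene, with a median of −0.09 and a range of −0.45 to 0.58. The MCM subunits, by comparison, spanned −0.25 to −0.13. This difference in spread was not tested.

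Markers of differentiating tissues also differed between the libraries. All 7 muscle genes lay above the median gene, with a median of 0.74 and summed levels of 4287 and 6247 TPM, led by Acta1 (1743 and 2448 TPM). All 7 genes of cornified epithelium did too, with a median of 0.94 and a sum of 490.3 and 746 TPM, led by Krtdap (344 and 420.3 TPM). All 7 osteoblast genes lay above, with a median of 0.59 and a sum of 3905 and 5075 TPM, led by Col1a1 (2955 and 3598 TPM). Chondrocyte genes went the other way, 9 of 10 below with a median of −0.49 and a sum of 1249.6 and 783 TPM, led by Col2a1 (484 and 285 TPM). No gene of these 4 lists was at 0 in either library.

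Of 7 erythroid genes 5 lay above the median gene, led by Hba-a2 with 12694 and 14384 TPM, and the embryonic globins Hbb-y and Hba-x below. The 4 neuron genes compared had a median of −0.13, with Tubb3 at 80.5 and 62.3 TPM the highest. The 9 facial mesenchyme markers lay around the median gene, 5 of 9 below with a median of −0.02. The part of these tissues in the ratios of the cell cycle genes was not tested.

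**Figure D4:**
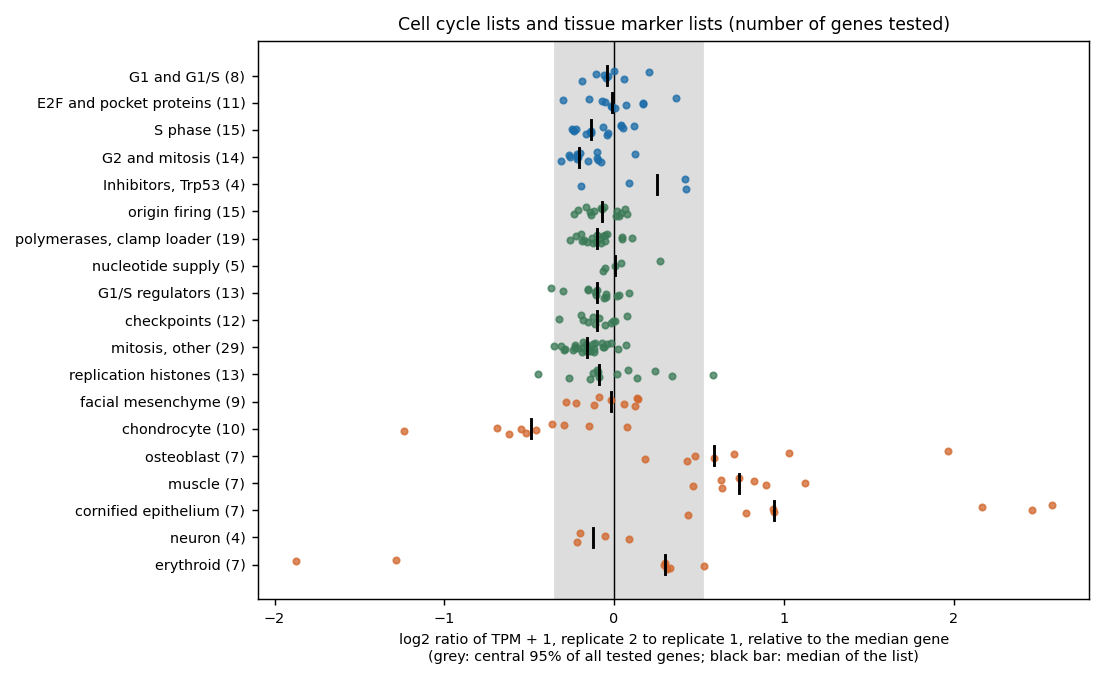
Log2 ratio of TPM + 1, replicate 2 to replicate 1, relative to the median gene, for each gene (point) of the cell cycle roles, the other cell cycle lists and the tissue marker lists, with list medians (black bars) and the central 95% of all tested genes (grey). Apart from the histones, the cell cycle lists sit between −0.37 and 0.42, while muscle, cornified epithelium and osteoblast genes reach higher and chondrocyte genes lower.

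Some members share sequence with other genes. Of the 53, 13 matched another gene over at least 300 bases at 95% identity or more, which includes genes that overlap them. Ccnb1 matched the pseudogene Ccnb1-ps at 99.2% over 1287 bases, which had 32.5 and 26.3 counts, and Pcna matched Pcna-ps2 at 99.2% over 781 bases, with 46.3 and 46.8 counts. These counts are small beside those of their parent genes, but other matched genes had more. Tyms matched Reep3 at 97.7% over 355 bases, with 2523 and 3071 counts against 3133 and 3563 for Tyms. Ccne2 matched Ints8, which overlaps it on the opposite strand, at 100% over 474 bases. Ints8 had 1749 and 2194 counts against 2203 and 2892 for Ccne2. Exons of 18 members overlap a gene on the opposite strand, and the handling of strand is not given in the sources used here, so that reads in the overlap cannot be told apart. Ccnd1 shares 1100 exon bases with LTO1, which had 16.4 and 14.5 TPM, and Cdk4 shares 641 with Tspan31, which had 40.4 and 34.2 TPM. For Rb1, Rbl2, E2f5, Mcm7 and Cdc45 a partner had the higher level. Rb1 shares 488 exon bases with Rcbtb2 (78.7 and 64.5 TPM) and Rbl2 shares 693 with Aktip (48.5 and 46.2 TPM). The stretches are shorter for E2f5, with 26 bases of 1810022K09Rik (311 and 328 TPM), for Mcm7, with 64 of Cops6 (213 and 177 TPM), and for Cdc45, with 209 of Ufd1 (39.1 and 34.6 TPM).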

How the data were processed

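Each library was quantified separately by the authors on build mm10 with GENCODE M4, per the companion text of the deposited files. No aligner, quantifier, tool version or strand setting is given in the sources used here. The deposited expected count of a gene or transcript is the authors' estimate of its reads before any scaling, per the file headers. TPM and FPKM are the authors' length-normalised values, per the file headers, and the deposited transcript percent divides the TPM of each gene among its transcripts. Each sample held 10.0 ng of RNA per the labels. Nothing states that the embryos came from separate litters.

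Ensembl identifiers were looked up in GENCODE M21 (also mm10) for symbols, classes and positions, found for 42462 of 43346 genes (98.0%). Ratios were log2(TPM + 1), replicate 2 minus replicate 1, which understates low genes, centred on the median gene among those averaging at least 5 TPM. The counting interval is the exact (Clopper-Pearson) conditional binomial interval of rounded expected counts. The floor is 3 counts. Near-copies were found with BLAST 2.17.0 and promoters came from RefSeq (GRCm38.p6). Tables were handled in Python 3.11.15 with pandas 2.3.3 and numpy 2.4.6, intervals came from scipy 1.17.1 and plots from matplotlib 3.10.9. R 4.3.3 ran edgeR 4.0.16 and DESeq2 1.42.0 for scaling factors alone. The ratio rule and interval were checked on simulated data.

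All 53 members are named. Of the other cell cycle list the 3 highest, the lowest and any past 1.5-fold are named, and of each tissue list the highest. Cdkn2d, Apoa2, Hbb-y and Hba-x were named after their values were seen, as were the transcripts, near-copies and overlapping genes. Members and lists were chosen with earlier results of these data known. Alternatives were other pseudocounts, filters, units, scalings, centrings, folds and thresholds, a coding-only choice of leading transcript and, for the count expressed, each replicate left out. Levels over coding transcripts were added after the data were seen.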

Additional observations from a re-analysis of the deposited data

How the results depend on the processing

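The median gene had a log2 ratio of −0.15 between the libraries, so results depended mainly on centring. Not centred, the median ratio was −0.22 for the members, −0.25 for the other cell cycle list, −0.19 for G1 genes, −0.16 for E2F and pocket protein genes, −0.28 for S phase genes, −0.35 for G2 and mitosis genes and 0.11 for the inhibitors. Without centring, the ratios of the following members changed sign. Among those whose counting interval excluded the median gene it became −0.091 for Ccnd3, −0.078 for Rb1, −0.030 for Cdt1 and −0.025 for Mki67. Among those whose interval included it, it became −0.15 for Cdk6, −0.14 for E2f4, −0.11 for Mcm10, −0.10 for Cdc6, −0.094 for Gmnn and −0.059 for Cdkn1b. With a pseudocount of 0.1, E2f3 lay below Ccnb1 (−0.33 against −0.31) and Cdkn2c above Cdkn1a (0.45 against 0.43). The counts past 1.5-fold stayed at 0 for both lists under every alternative run, and 13 of 14 genes of G2 and mitosis lay below the median of all genes in each. Leaving out a replicate gave 52 members at 1 TPM either time, and no ratio can be computed from 1 library. The short noncoding models named with E2f2 and E2f3 moved single genes. Level orders within roles depended on whether coding transcripts alone were counted. Examples are the orders of Cdk4 and Ccnd3, of the pocket proteins, and of Cdk1 and Birc5, and the places of Top2a and Tyms in their groups. No paired analysis was possible because there is 1 group. Depth limits Cdkn2a, where a count of 0 allows up to 0.196 and 0.152 TPM.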
